A study of Mus musculus with 13 samples.

Results

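The 10 genes described here are the Notch receptors Notch1, Notch2 and Notch3, the Notch ligands Jag1 and Dll1, the Hes factors Hes1 and Hes6, and the inhibitors of DNA binding Id1, Id2 and Id3. They were chosen by name, through Ensembl identifiers matched to GRCm38 gene symbols, out of 34857 genes in the deposited tables, and all 10 were found. Their expression was measured in Neuro2a, a mouse neuroblastoma cell line, after a simulated failure of cryostorage. The question of the design is how cells that outlived the failure compare with cells kept frozen throughout. Every vial was frozen in medium with 10% dimethyl sulfoxide (DMSO), a cryoprotectant. Experimental vials lost their nitrogen over 10 h, were held for 24 h at 4 °C, spent 72 h at -80 °C and were thawed at 37 °C. Control vials remained in ordinary cryostorage and were thawed at 37 °C. All groups grew in DMEM with fetal bovine serum. Passage 1 (3 control and 4 experimental libraries) was sampled when the survivors were dividing again, and passage 6 (3 and 3) when they looked normal. All 13 libraries come from 1 cell line, and the labels do not say whether replicates are separate vials or dishes, so the p-values cover just the scatter among these libraries, part of which may be technical.

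Notch receptors are single-pass membrane proteins that are activated by ligands on a neighbouring cell. Proteolysis then frees the intracellular domain, which joins RBPJ and Mastermind-like coactivators in the nucleus and switches on target genes, among them Hes1, a basic helix-loop-helix (bHLH) repressor of neuronal differentiation. Id proteins have a helix-loop-helix but no DNA-binding basic region. They bind E proteins, the partners of proneural bHLH factors, and so keep such factors off DNA, and bone morphogenetic protein (BMP) signalling through SMAD proteins is a well-known inducer of Id genes.

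Values are FPKM (fragments per kilobase of transcript, divided by the library's mapped fragments), a level that accounts for gene length. A gene entered the main test of a passage when it reached 1 FPKM in at least 3 libraries. Notch2, Hes6, Id1, Id2 and Id3 did so at both passages, whereas Notch1, Notch3, Jag1, Dll1 and Hes1 did so at neither. These 5 low members were tested in a second fit over all genes detected in at least 1 library of the passage. Changes were tested with limma on log2(FPKM + 1), and a gene is said to have risen or fallen only where its Benjamini-Hochberg adjusted p was under 0.05. Fold changes are back-transformed from that scale and understate the change of low genes.

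Of the 5 members in the main test, Id1 fell at passage 1, and Id1 and Notch2 fell at passage 6. At passage 1, 1 of 5 was called, beside 30.4% of all 12469 tested genes (11.5% higher and 18.9% lower). Passage 6 had 2 of 5 called, beside 19.8% of 12458 genes (8.98% higher and 10.8% lower). In the fit without the filter Notch3 and Jag1 rose at passage 1, 2 of the 5 low members, where 9.88% of 30366 genes were called (3.65% higher and 6.23% lower). Neither was called at passage 6, where that fit called 4.11% of 31320 genes (2.05% higher and 2.06% lower). The median log2 change of the 5 main-test members was -0.04 at passage 1 and -0.23 at passage 6, beside -0.05 and -0.04 over all genes tested.

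The start regions of 4 members are shown because these genes carry the results or a motif match: Notch3 and Jag1 were the members that rose at passage 1, Notch2 fell at passage 6, and Id2 holds a match to the BMP-responsive motif. Each runs from 250 bases before to 50 bases after the RefSeq start on GRCm38.p6, 5′ to 3′ on the strand of the gene. They lie at chr17:32166841-32167140 (minus strand, Notch3), chr2:137116471-137116770 (minus, Jag1), chr3:98013288-98013587 (plus, Notch2) and chr12:25096043-25096342 (minus, Id2). Capitals in Id2 mark the motif GGCGCC.
Notch3: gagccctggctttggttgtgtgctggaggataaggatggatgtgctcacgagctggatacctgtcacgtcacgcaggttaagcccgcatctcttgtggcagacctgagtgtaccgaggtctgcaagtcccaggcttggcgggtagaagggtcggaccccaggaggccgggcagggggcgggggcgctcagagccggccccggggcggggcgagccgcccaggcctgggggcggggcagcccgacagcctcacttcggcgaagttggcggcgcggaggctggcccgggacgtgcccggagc
Jag1: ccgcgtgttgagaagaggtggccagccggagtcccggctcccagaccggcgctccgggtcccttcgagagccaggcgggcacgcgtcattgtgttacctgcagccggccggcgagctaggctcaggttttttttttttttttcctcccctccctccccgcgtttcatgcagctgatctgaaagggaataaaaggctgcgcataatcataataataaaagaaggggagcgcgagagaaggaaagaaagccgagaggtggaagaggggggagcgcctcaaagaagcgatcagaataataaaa
Notch2: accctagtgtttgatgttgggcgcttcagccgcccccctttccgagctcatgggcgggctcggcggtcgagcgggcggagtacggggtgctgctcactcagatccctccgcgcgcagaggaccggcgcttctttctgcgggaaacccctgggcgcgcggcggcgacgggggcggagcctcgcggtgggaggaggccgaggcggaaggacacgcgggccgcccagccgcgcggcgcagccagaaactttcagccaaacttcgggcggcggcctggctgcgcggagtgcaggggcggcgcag
Id2: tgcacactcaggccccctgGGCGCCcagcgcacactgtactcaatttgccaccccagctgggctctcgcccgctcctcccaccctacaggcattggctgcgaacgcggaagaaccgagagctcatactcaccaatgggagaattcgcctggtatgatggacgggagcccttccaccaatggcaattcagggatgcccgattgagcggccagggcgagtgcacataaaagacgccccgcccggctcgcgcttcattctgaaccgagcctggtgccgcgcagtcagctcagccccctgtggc
RefSeq start windows were at hand for 8 of the 10 members, in 10 windows, and not for Id1 and Hes1. Both strands were searched for TGGGAA, the core of the RBPJ motif, for GGCGCC and for GCGTGGGCG, the motif of EGR factors. TGGGAA or its complement stood in 0 of the 10 windows and in 25.6% of all 32841 RefSeq windows of this length. GGCGCC stood in 2 of 10, 1 in Id2 and 1 in Dll1, against 11.9% of all windows. The EGR motif stood in 0 of 10, against 0.612%. A match is only a match of letters within this window.

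The receptors differed in level and in what was measured after storage failure. Notch2 (chr3:98013527-98150361, plus strand) was the only receptor in the main test. At passage 1 its level was 4.59, 4.55 and 4.68 FPKM in the controls and 3.84, 4.33, 4.70 and 3.58 in the experimental libraries. Experimental library 3 stood above every control, so the groups overlapped, and the log2 change of -0.14 (95% confidence interval -0.32 to 0.05) was not called (adjusted p = 0.223, limma). At passage 6 the level was 9.85, 9.68 and 9.79 FPKM in the controls and 6.28, 6.88 and 7.75 in the experimental libraries. All 3 experimental libraries lay below all 3 controls, and Notch2 fell 1.36-fold (log2 change -0.44, SE 0.0736, adjusted p = 0.0097, limma). The call stood in each fit that left out 1 library, with adjusted p up to 0.0485. The control level itself was 4.61 ± 0.0673 FPKM at passage 1 and 9.77 ± 0.0866 at passage 6 (SD, n = 3 each), in tables that were deposited separately.

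Notch3 (chr17:32120820-32166852, minus strand), a receptor best known from vascular mural cells, was low throughout. At passage 1 its level was 0.198, 0.178 and 0.180 FPKM in the controls and 0.796, 0.468, 1.05 and 0.861 in the experimental libraries. Every experimental library was above every control, and the ratio of mean FPKM was 4.28. On the log2(FPKM + 1) scale the change was 0.59 (SE 0.112, adjusted p = 0.0233, limma without the filter). That call rests on all 3 controls: without control 1, 2 or 3 the adjusted p was 0.0804, 0.0831 or 0.0846, without experimental library 1 or 4 it was 0.0527 or 0.0632, and the log2 change stayed between 0.52 and 0.68 in all 7 such fits. Levels at passage 6 were 0.474, 0.423 and 0.644 FPKM in the controls and 0.454, 0.690 and 0.690 in the experimental libraries. The groups overlapped there (log2 change 0.09, 95% confidence interval -0.16 to 0.34, adjusted p = 0.637, limma).

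Notch1 (chr2:26457903-26516663, minus strand) was the lowest of the 3 member receptors at passage 6. Its level was 0.203, 0.140 and 0.134 FPKM in the passage 1 controls and 0.227, 0.137, 0.196 and 0.208 in the experimental libraries. Those of passage 6 were 0.232, 0.267 and 0.235 FPKM in the controls and 0.161, 0.308 and 0.343 in the experimental libraries. The groups overlapped at both passages, with adjusted p = 0.56 and 0.833 (limma without the filter).

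Of the ligands, Jag1 (chr2:137081456-137116644, minus strand), a ligand of the Serrate type, rose at passage 1. Its level was 0.130, 0.0886 and 0.119 FPKM in the controls and 0.505, 0.400, 0.551 and 0.659 in the experimental libraries. The groups were separate, with a ratio of mean FPKM of 4.70, and the log2 change was 0.46 (SE 0.0611, adjusted p = 0.0078, limma without the filter). The call stood when any 1 library was left out (adjusted p up to 0.0413). At passage 6 Jag1 was at 0.277, 0.466 and 0.317 FPKM in the controls and at 0.427, 0.707 and 0.607 in the experimental libraries. Control 2 stood above experimental library 1, and the log2 change of 0.22 (95% confidence interval -0.02 to 0.46) was not called (adjusted p = 0.285, limma).

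Dll1 (chr17:15367354-15376872, minus strand), a ligand of the Delta type, was not called at either passage. At passage 1 the levels were 0.467, 0.241 and 0.302 FPKM in the controls and 0.510, 0.425, 0.312 and 0.358 in the experimental libraries, which overlapped (adjusted p = 0.627, limma without the filter). At passage 6 they were 0.444, 0.486 and 0.309 FPKM in the controls and 0.499, 0.663 and 0.499 in the experimental libraries. The experimental libraries were just above the controls there (log2 change 0.14, adjusted p = 0.424, limma).

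**Figure D1:**
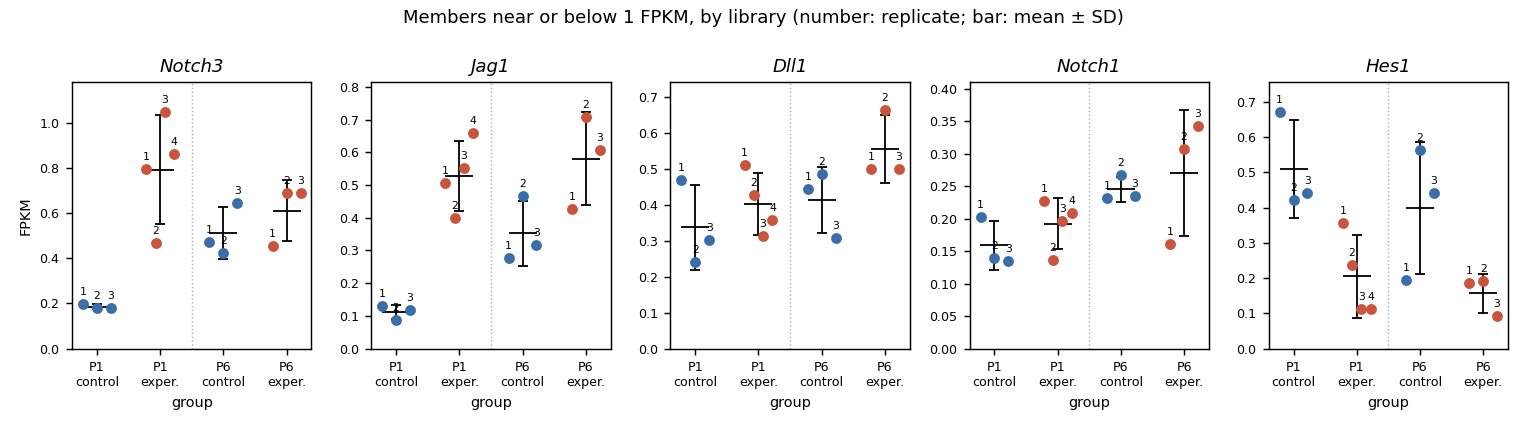
FPKM of the 5 members below the filter of the main test (Notch1, Notch3, Jag1, Dll1, Hes1) in each of the 13 libraries, by passage and group, with group means as bars. Notch3 and Jag1 lie higher in all 4 experimental libraries of passage 1 than in any control of that passage, and Hes1 lies lower.

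Values this low rest on few reads. From the size of the smallest steps in the tables, a Notch3 level was worth an estimated 45.8 to 51.9 reads in the passage 1 controls and 139 to 282 in the experimental libraries. For Jag1 the estimates were 17.5 to 24.0 reads and 83.3 to 143. Hes1 rested on 21.8 to 28.4 and 5.49 to 17.9 reads at passage 1.

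Hes1 (chr16:30064384-30067796, plus strand), the classical target and effector of Notch, was lower in the experimental libraries without passing the test. At passage 1 the levels were 0.670, 0.421 and 0.440 FPKM in the controls and 0.356, 0.237, 0.112 and 0.113 in the experimental libraries. The groups did not overlap, with control means 2.50 times the experimental means (log2 change -0.33, SE 0.0936, adjusted p = 0.0803, limma without the filter). Without experimental library 1 the adjusted p was 0.0495. At passage 6 Hes1 was at 0.195, 0.563 and 0.442 FPKM in the controls and at 0.186, 0.191 and 0.0924 in the experimental libraries. Control 1 was barely above the highest experimental library, and the ratio of control to experimental means was 2.56 (adjusted p = 0.257, limma).

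Hes1 varied together with markers of colon epithelium in the passage 1 libraries. The summed FPKM of 20 colon epithelium markers was 490, 227 and 235 in the passage 1 controls and 204, 185, 8.40 and 93.2 in the experimental libraries. At passage 6 it was 121, 230 and 269 in the controls and 114, 8.67 and 9.44 in the experimental libraries. At each passage both this sum and Hes1 were higher in every control than in any experimental library. For Hes1, pairs across the groups therefore agree by that separation alone, and only pairs within a group add to it. In 21 of the 21 pairs of passage 1 libraries the library with more colon marker signal also had more Hes1, as did 9 of 9 pairs within a group. Dll1 also had the colon order in 9 of 9 pairs within a group there, and in 12 of all 21. At passage 6 Hes1 had the colon order in 12 of 15 pairs, 3 of 6 within a group. Dll1 had it there in 2 of 15 pairs, 2 of 6 within a group. Of the 20 colon markers, Car1, Zg16, Muc2 and Epcam were each at 0 in 2 libraries. Krt8, Cdh17, Vil1, Lgals4, Pigr and Ceacam1 were above 0 in every library, Vil1 for instance at 3.32 to 9.47 FPKM. The part of this signal in the Hes1 difference was not tested, and in bulk RNA fewer cells of a type and less RNA per cell cannot be told apart.

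**Figure D2:**
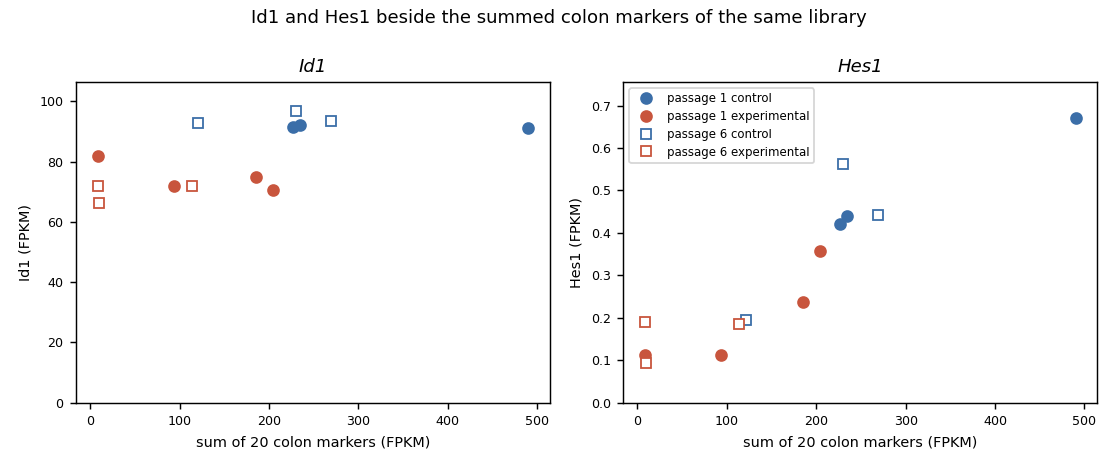
Hes1 and Id1 (FPKM) against the summed FPKM of 20 colon epithelium markers, 1 point per library, by passage and group. Hes1 rises with the colon marker sum across the 7 libraries of passage 1. Id1 of the 4 passage 1 experimental libraries, at sums of 8.40 to 204, lies below that of the controls.

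Hes6 (chr1:91411483-91414038, minus strand), a divergent Hes factor that antagonises Hes1 and promotes neuronal differentiation, was expressed well above Hes1. At passage 1 the levels were 9.54, 8.73 and 8.03 FPKM in the controls and 9.08, 9.39, 9.10 and 9.16 in the experimental libraries. At passage 6 they were 5.59, 5.89 and 4.94 FPKM in the controls and 6.65, 6.57 and 5.43 in the experimental libraries. The groups overlapped at both passages, and neither the log2 change of 0.06 (95% confidence interval -0.07 to 0.20) nor that of 0.15 (-0.06 to 0.37) was called (adjusted p = 0.451 and 0.262, limma).

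Id1 (chr2:152736251-152737410, plus strand) was the most abundant member and the only one that fell at both passages. At passage 1 its level was 91.1, 91.4 and 92.2 FPKM in the controls and 70.6, 74.9, 82.0 and 71.8 in the experimental libraries. The controls lay close together and every experimental library lay below them. Mean levels were 91.6 ± 0.585 FPKM (SD, n = 3) and 74.8 ± 5.09 (n = 4), a 1.22-fold fall (log2 change -0.29, SE 0.0564, adjusted p = 0.0073, limma). At passage 6 the level was 93.0, 96.9 and 93.5 FPKM in the controls and 71.8, 71.8 and 66.1 in the experimental libraries. The groups were again separate, at 94.5 ± 2.14 and 69.9 ± 3.27 FPKM (SD, n = 3 each), a 1.35-fold fall (log2 change -0.43, SE 0.0506, adjusted p = 0.0033, limma). The passage 6 call stood in all 17 alternatives run, scalings included (adjusted p up to 0.0272).

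The passage 1 call of Id1 stood when any 1 library was left out (adjusted p up to 0.0364). It ended when both libraries with low cartilage marker signal, control 1 and experimental 4, were left out together, where the log2 change was -0.28 and the adjusted p 0.0815. Without these 2 libraries Notch3 and Jag1 were not called either (log2 changes 0.57 and 0.43, adjusted p = 0.174 and 0.0741). With both left out, the main test called 8.02% of all genes, beside 30.4% with all libraries of passage 1. Id1 and the colon marker sum had the same order in 14 of 21 pairs of passage 1 libraries, 2 of 9 within a group, and in 13 of 15 pairs at passage 6, 4 of 6 within a group. Both were higher in every control than in any experimental library of the same passage. All pairs across the groups therefore agree by that separation alone, and only the counts within a group add to it. The part of the colon signal in the Id1 change was not tested.

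Id2 (chr12:25093799-25097140, minus strand) and Id3 (chr4:136143497-136145755, plus strand), which like Id1 sequester E proteins, were not called. At passage 1 Id2 was at 9.25, 9.42 and 9.46 FPKM in the controls and at 10.9, 9.77, 9.18 and 8.22 in the experimental libraries. Id3 was at 43.5, 44.3 and 43.5 FPKM in the controls and at 45.1, 39.3, 44.1 and 42.1 in the experimental libraries. Both overlapped between the groups, with log2 changes of 0.01 (95% confidence interval -0.18 to 0.21, adjusted p = 0.908, limma) and -0.04 (-0.16 to 0.09, adjusted p = 0.633). Their sign turned under some settings, Id3 being at 0.0298 with median-of-ratios scaling and Id2 at -0.05 without experimental library 1.

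At passage 6 all 3 Id members were lower in every experimental library than in any control, Id3 by a narrow margin (39.0 against 39.3 FPKM). The share of all genes that separate in this way was not computed, and only Id1 was called. Id2 was at 10.1, 10.3 and 10.1 FPKM in the controls and at 9.18, 9.29 and 8.03 in the experimental libraries. Id3 was at 39.3, 42.7 and 41.2 FPKM in the controls and at 39.0, 33.5 and 32.3 in the experimental libraries. The log2 changes of -0.19 for Id2 and -0.23 for Id3 missed the threshold (adjusted p = 0.0803 and 0.075, limma). Without experimental library 1 both passed it, at adjusted p = 0.0451 for Id2 and 0.0039 for Id3. With only experimental library 1 kept, the log2 change was -0.14 for Id2 (adjusted p = 0.11) and -0.07 for Id3 (0.384). The share of all genes called was 34.6% without library 1.

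**Figure D3:**
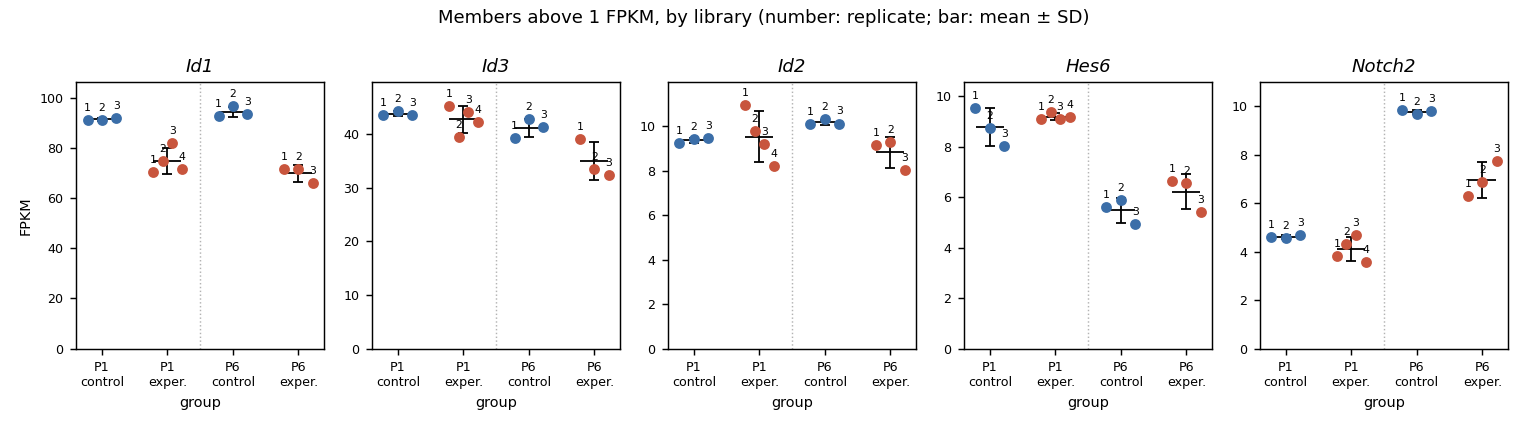
FPKM of the 5 members of the main test (Notch2, Hes6, Id1, Id2, Id3) in each of the 13 libraries, by passage and group, with group means as bars. The Id1 points of the experimental libraries lie below all controls at both passages, and those of Notch2, Id2 and Id3 do so at passage 6. Id2 and Id3 were not called there.

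Id1 held a smaller share of the Id pool in the experimental libraries than in the controls of the same passage. It made up 61.6% to 62.0% of the summed FPKM of Id1, Id2, Id3 and Id4 in the passage 1 controls and 53.7% to 59.1% in the experimental libraries. At passage 6 the shares were 63.3% to 64.1% and 57.5% to 60.9%. Id4, the fourth family member, held 1.82% to 1.97% of that sum in the passage 6 controls and 2.77% to 4.08% in the experimental libraries.

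The order of the members by FPKM was nearly fixed from Id1 to Notch2. In all 4 groups Id1 stood first, followed by Id3 and then Id2. The ranges of Id2 and Hes6 overlapped in both passage 1 groups, and those of Notch2 and Hes6 in the passage 6 experimental group. Among the low members the order in the passage 1 controls was Hes1, Dll1, Notch3, Notch1 and Jag1, of which Hes1 and Dll1, and Notch3 and Notch1, overlapped. In the passage 1 experimental group it was Notch3, Jag1, Dll1, Hes1 and Notch1, with each neighbour overlapping the next. The passage 6 controls had the order Notch3, Dll1, Hes1, Jag1 and Notch1, where only Jag1 and Notch1 did not overlap. The passage 6 experimental libraries had Notch3, Jag1, Dll1, Notch1 and Hes1, where only Dll1 and Notch1 did not.

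The change at passage 6 was compared with that at passage 1 by a contrast over all 13 libraries. None of the 5 main-test members passed (0 of 5 by limma, where 14.7% of 13019 genes were called, 8.46% upward and 6.27% downward), and 1 of 5, Notch2, had an unadjusted p under 0.05. Id1 differed by -0.14 (95% confidence interval -0.31 to 0.03, adjusted p = 0.248) and Notch2 by -0.30 (-0.54 to -0.06, adjusted p = 0.092). Without passage 6 experimental library 3 the Notch2 difference passed (adjusted p = 0.0447), and without experimental library 1 that of Id3 did (0.0286). The Id3 difference was -0.19 as reported and -0.03 with both passage 6 experimental libraries 2 and 3 left out (adjusted p = 0.843). In the fit without the filter the differences were -0.50 for Notch3 (adjusted p = 0.128) and -0.23 for Jag1 (adjusted p = 0.318), where 3.52% of genes were called (2.18% upward and 1.35% downward). Without passage 1 experimental library 2 that of Notch3 passed (adjusted p = 0.0278). The rise of Notch3 and Jag1 at passage 1 was therefore not shown to differ from their change at passage 6.

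**Figure D4:**
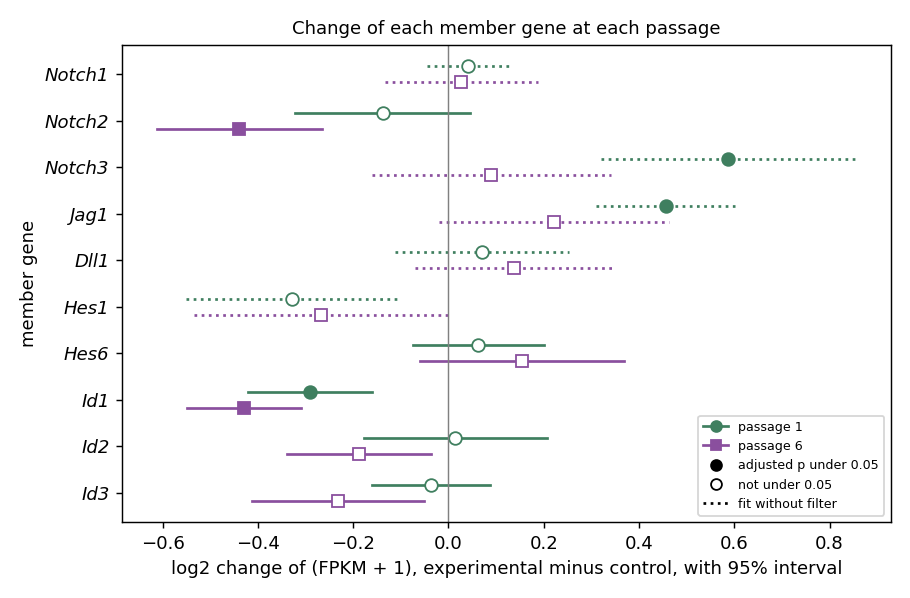
Log2 change of (FPKM + 1), experimental minus control, of the 10 members at each passage, with 95% confidence intervals from limma (filled: adjusted p under 0.05, dotted: fit without the filter). Among filled symbols Id1 lies below 0 at both passages, Notch2 lies below 0 at passage 6, and Notch3 and Jag1 lie above 0 at passage 1.

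Among 98 other genes of the Notch, E protein and BMP lists, 97 were in the tables and 66 were tested at passage 1. At passage 1, 16 rose and 2 fell, 27.3% called in all (background 30.4%), with a median log2 change of 0.11. At passage 6, 15 of 69 rose and 3 fell, 26.1% called (background 19.8%), with a median of 0.05. The counts moved with single libraries at passage 6. They were 5, 4 and 6 without control 1, 2 or 3, where 5.47% to 6.26% of all genes were called. Without experimental library 3 the count was 11, beside 12.9% of all genes. With both low-cartilage libraries of passage 1 left out, 9 were called at that passage, beside 8.02% of all genes. In that fit the calls of Dlk1, Adam10, Numb, Numbl, Dtx4, Ep300, Crebbp, Hdac1, Fst and Smad7 ended (adjusted p 0.0572 to 0.198, limma).

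**Figure D5:**
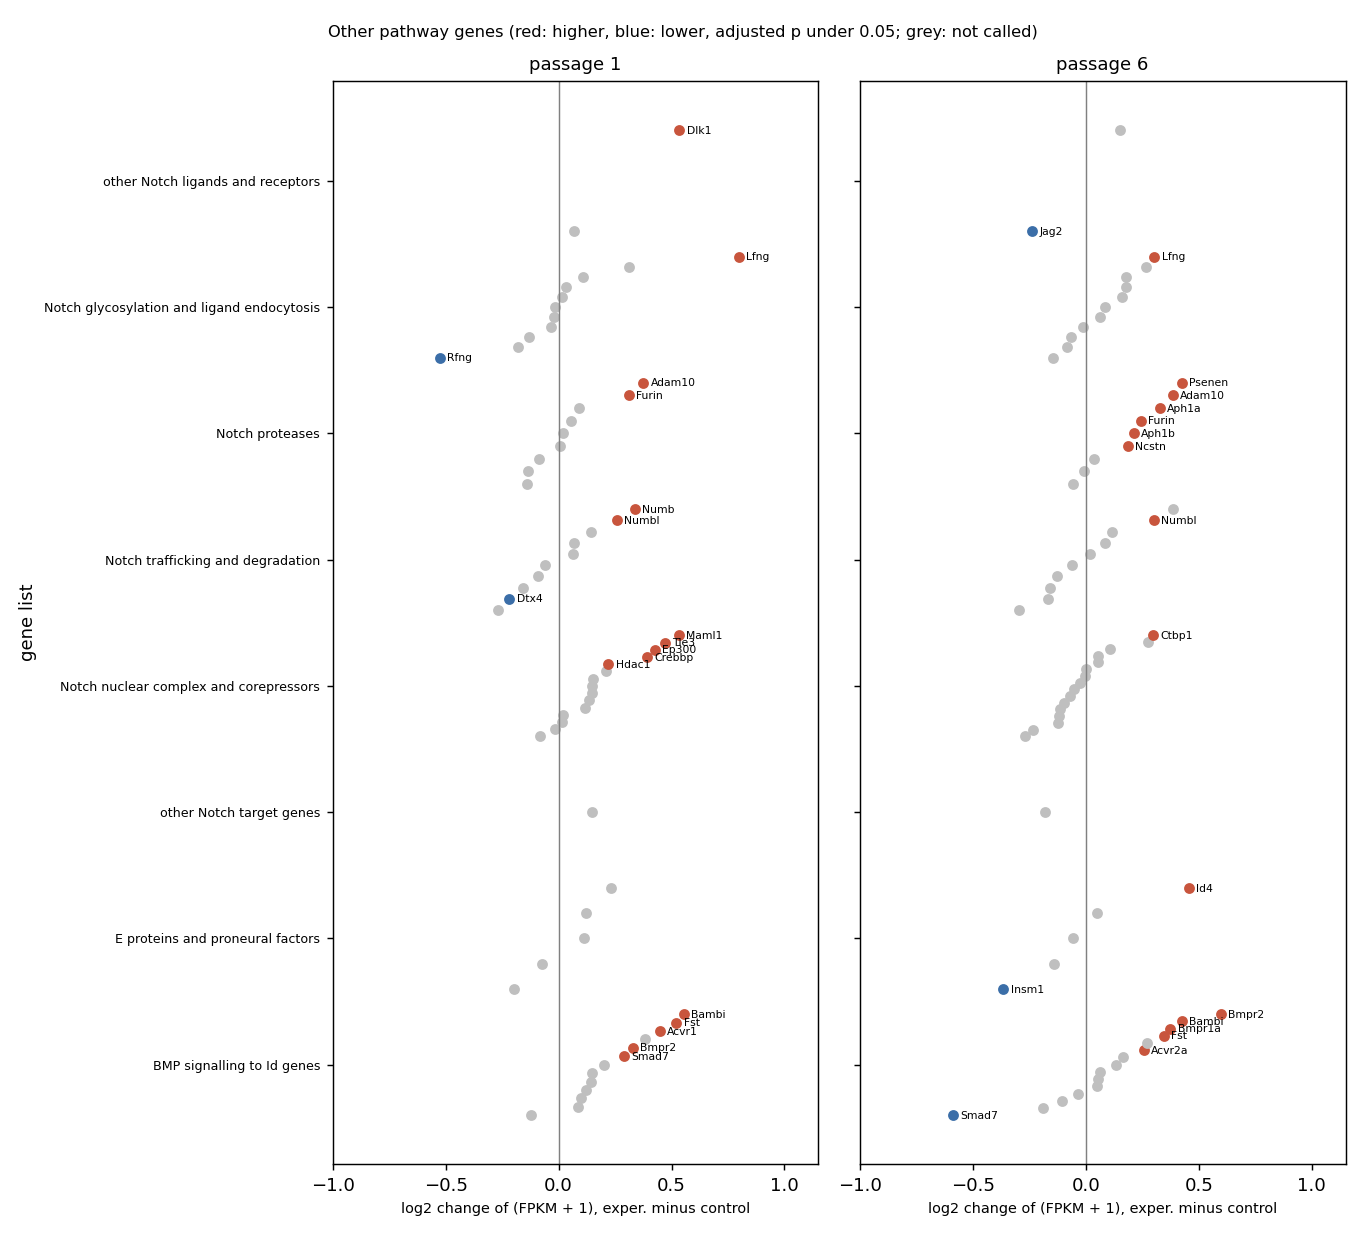
Log2 change of (FPKM + 1), experimental minus control, of each tested gene of 8 lists at passage 1 and passage 6, with called genes coloured and named. Of the 18 called genes at each passage, 16 lie above 0 at passage 1 and 15 at passage 6.

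Of the other ligands and receptors 2 of 6 were tested. Dlk1, a non-canonical ligand, rose at passage 1 from 1.44 ± 0.241 to 2.53 ± 0.261 FPKM (adjusted p = 0.0048, limma). Without both low-cartilage libraries of that passage Dlk1 was not called (0.0594). Jag2, a further Serrate-type ligand, fell 1.18-fold at passage 6, from 17.8 to 15.0 FPKM (adjusted p = 0.0421). The Jag2 call ended without any 1 control or experimental library 3 (adjusted p up to 0.153) and with the 3 rescalings run, median-of-ratios (0.0715), equal totals (0.11) and quantile (0.0557).

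Over all genes tested at passage 1, 11.5% rose and 18.9% fell. Of 11 glycosylation and ligand endocytosis genes, 1 rose and 1 fell at that passage. Both are Fringe glycosyltransferases, which modify the Notch extracellular domain and so tune its response to Delta and Serrate ligands. Lfng rose 1.74-fold at passage 1, from 5.97 ± 0.18 to 11.2 ± 1.62 FPKM (adjusted p = 0.0012, limma). At passage 6 it rose 1.23-fold, from 14.8 to 18.5 FPKM (adjusted p = 0.0319), a call that ended without any 1 control or without experimental library 2 or 3 (adjusted p up to 0.112), and whose log2 change of 0.30 was 0.15 without both (0.0925). Rfng fell 1.44-fold at passage 1, from 11.3 ± 0.107 to 7.54 ± 0.57 FPKM (adjusted p = 0.00086). The passage 1 calls of both Fringe genes stood in all 18 alternatives run.

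Proteases cut Notch in the secretory pathway (Furin), at the surface after ligand binding (Adam10) and within the membrane (the gamma-secretase subunits). Of 9 tested, 2 rose at passage 1 and 6 at passage 6, beside 11.5% and 8.98% of all genes tested. At either passage 0 fell, beside 18.9% and 10.8%. Adam10 rose 1.30-fold at passage 1 (17.6 to 23.2 FPKM, adjusted p = 0.0041, limma) and 1.31-fold at passage 6 (27.3 to 36.2 FPKM, adjusted p = 0.0305). Furin rose 1.24-fold and 1.18-fold (adjusted p = 0.0068 and 0.017). The gamma-secretase subunits Psenen and Aph1a rose 1.34-fold and 1.26-fold at passage 6 (adjusted p = 0.01 and 0.0144). Ncstn and Aph1b also rose there, 1.14-fold and 1.16-fold (adjusted p = 0.0299 and 0.0341, limma), and their alternatives are not reported here. At passage 6 the Psenen call stood in all 17 alternatives, while those of Adam10 and Furin ended without any 1 control (adjusted p up to 0.102 and 0.081), that of Adam10 without experimental library 3 (0.0893), and that of Aph1a without control 1 or 2 (up to 0.0699). The passage 1 call of Adam10 ended without both low-cartilage libraries (0.0572).

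Of 10 trafficking and degradation genes, 2 rose and 1 fell at passage 1, beside 11.5% and 18.9% of all genes tested. Numb and Numbl, endocytic adaptors that restrain Notch, rose 1.26-fold and 1.20-fold (adjusted p = 0.0236 and 0.0133, limma), and Dtx4, a Deltex ubiquitin ligase, fell 1.16-fold (adjusted p = 0.0402). Without any 1 control the calls of Numb and Dtx4 ended (adjusted p up to 0.0894 and 0.152), also without experimental library 4 (0.0616 and 0.083) and for Dtx4 without experimental library 1 or 3 (0.0789 and 0.0666), as did that of Numbl without control 1 or 2 (up to 0.0579). At passage 6 Numbl rose 1.23-fold (adjusted p = 0.0482) and the other 9 were not called. The Numbl call there ended without any 1 control or without experimental library 2 or 3 (up to 0.15), and its log2 change of 0.30 was 0.16 without both (0.199). The Dtx4 call also ended with median-of-ratios, equal-total and quantile scaling (0.122, 0.0828 and 0.0658), and that of Numbl at passage 6 with equal totals (0.0566).

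The nuclear complex held 5 genes of 15 that rose at passage 1, and none fell. Over all genes tested, 11.5% rose and 18.9% fell at passage 1, and 8.98% rose and 10.8% fell at passage 6. The coactivator Maml1 rose 1.45-fold, from 5.89 ± 0.0548 to 8.97 ± 0.496 FPKM (adjusted p = 0.00055, limma). Tle3, a Groucho-type corepressor, rose 1.38-fold, from 14.3 to 20.1 FPKM (adjusted p = 0.0004). The acetyltransferases Ep300 and Crebbp rose 1.34-fold and 1.31-fold (adjusted p = 0.0164 and 0.0108), and the deacetylase Hdac1 rose 1.17-fold (adjusted p = 0.0226). Coactivators and corepressors therefore both stand in this count. The calls of Maml1 and Tle3 stood in all 18 alternatives, while those of Ep300 (without control 1 or 2, up to 0.067), Crebbp (without control 3, 0.0501) and Hdac1 (without any 1 control, up to 0.0922) ended. Without both low-cartilage libraries the calls of Ep300 (0.137), Crebbp (0.0614) and Hdac1 (0.104) ended as well. At passage 6, 1 of 16 rose: the corepressor Ctbp1, 1.23-fold (adjusted p = 0.0099), which was not called without control 1 or 2 (up to 0.0578).

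Other target genes of Notch were mostly too low to test, and only Hey1 of 8 passed the filter. Hey1, a bHLH repressor related to Hes1, was at 4.45 and 5.07 FPKM in controls and experimental libraries of passage 1 and at 3.04 and 2.56 at passage 6 (adjusted p = 0.24 and 0.213, limma; unadjusted p under 0.05 in 0 of 1 at each passage). In the fit without the filter Hey2 was at 0.683 and 0.355 FPKM at passage 1 (adjusted p = 0.085) and Nrarp, a feedback inhibitor of Notch, at 0.328 and 0.367 at passage 6 (adjusted p = 0.796).

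Among E proteins and proneural factors, 0 of 5 were called at passage 1, beside 30.4% of all genes tested, and 2 had an unadjusted p under 0.05 (limma). Tcf3, an E protein bound by Id factors, was at 21.9 and 20.8 FPKM at passage 1 (adjusted p = 0.375). At passage 6 Id4 rose 1.37-fold, from 2.79 to 4.25 FPKM (adjusted p = 0.0439), against the direction of Id1. Insm1, a zinc finger factor of neuroendocrine progenitors, fell 1.29-fold, from 12.97 to 9.89 FPKM (adjusted p = 0.015). Both calls ended without any 1 control (adjusted p up to 0.131 and 0.0648), and that of Id4 also without experimental library 1 or 3 (0.0557 and 0.118).

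BMP signalling genes included 5 that rose of 13 at passage 1, and 5 that rose and 1 that fell of 15 at passage 6. The shares over all genes tested were 11.5% higher and 18.9% lower at passage 1, and 8.98% and 10.8% at passage 6. Bambi, a decoy receptor that dampens BMP and activin signals, rose 1.47-fold at passage 1 (6.66 to 10.3 FPKM, adjusted p = 0.00081, limma) and 1.34-fold at passage 6 (7.62 to 10.6 FPKM, adjusted p = 0.0103). Bmpr2, the type II BMP receptor, rose 1.26-fold and 1.51-fold (adjusted p = 0.0027 and 0.0069). Fst, the activin antagonist follistatin, rose 1.44-fold and 1.27-fold (adjusted p = 0.0109 and 0.0362). Its passage 1 call ended without both low-cartilage libraries (0.0915). The receptor Acvr1 rose 1.36-fold at passage 1 (adjusted p = 0.0013), and the receptors Bmpr1a and Acvr2a rose 1.30-fold and 1.19-fold at passage 6 (adjusted p = 0.009 and 0.0309). Receptors of the pathway and its antagonists thus both stand among the genes that rose while Id1 fell.

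Smad7, an inhibitory SMAD, moved in opposite directions. It rose 1.22-fold at passage 1 (6.97 ± 0.235 to 8.77 ± 0.772 FPKM, adjusted p = 0.0164, limma) and fell 1.502-fold at passage 6 (12.0 ± 0.467 to 7.68 ± 0.934 FPKM, adjusted p = 0.0062). The passage 1 call ended without any 1 control (adjusted p up to 0.0713), whereas that of passage 6 stood in all 17 alternatives. At passage 6 the calls of Bambi without control 3 (0.0516), Bmpr1a without control 2 (0.0509), Acvr2a without any 1 control or experimental library 3 (up to 0.123) and Fst without any 1 control or experimental library 2 (up to 0.124) ended.

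Id1 had the smallest adjusted p at passage 1 of the 5 members in the main test (in the fit without the filter Jag1 had 0.0078 and Id1 0.0211), and its pattern over the 13 libraries, as log2(FPKM + 1) minus the control mean of the same passage, was set beside 6746 genes. The most similar were Lta4h (Pearson r = 0.965), Ndufa7 (0.955), Sra1 (0.948), Mtif2 (0.947) and the mitochondrial tRNA gene mt-Tw (0.945). Lta4h, for instance, was at 21.58 and 17.03 FPKM in controls and experimental libraries of passage 1 and at 16.98 and 11.3 at passage 6. These libraries share 2 passages and the same controls, so r describes likeness only.

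Facts of the libraries bear on all of these values. The tables state no depth, and the smallest steps correspond to an estimated 27.5 to 38.7 M reads per library, with 12014 to 12467 genes at 1 FPKM or more. All 13 neuroblastoma identity markers were detected in every library, Hand2 for instance at 58.8 to 114 FPKM. Markers of other tissues were present too. The sum of 14 cartilage markers was 12.9 to 57.0 in passage 1 controls and 16.7 to 44.1 in the experimental libraries, lowest in control 1 and experimental library 4. At passage 6 it was 40.3 to 64.6 and 22.3 to 26.7. The sum of 10 liver markers was 202 and 161 in passage 6 experimental libraries 2 and 3 and at most 1.02 elsewhere, and Alb was at 0 in the other 11 libraries. The same 2 libraries had 71.1 and 58.3 for 10 brain and myelin markers, against 22.7 to 30.9 elsewhere. With both left out, Id1 (log2 change -0.47) and Notch2 (-0.57) were still called at passage 6, while the Id3 change was -0.07 in place of -0.23. The 9 endothelium markers summed to 3.45 to 7.23. Pecam1, Cdh5, Tek, Vwf and Esam were above 0 in every library. Kdr, Tie1 and Cldn5 were each at 0 in 9 of 13 libraries, and Emcn in 11. The part of these tissue signals in the changes of the other members was not tested.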

How the data were processed

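RNA of 13 Neuro2a libraries was poly(A)-selected and stranded, per the labels' protocols. Each passage has its own table, in which the authors deposited FPKM. The submitters' processing notes name mm10 and the tools HISAT2, StringTie, cutadapt, edgeR and DESeq2, without versions, so the scaling between libraries is not stated. Of 34857 genes, 1 with an empty cell was left out, and 34730 matched a symbol in the GRCm38 annotation (GENCODE). All value columns were used.

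Low values fell in steps, but only 20.1% to 23.6% of them were whole reads within 0.05 read, so no count test was run. FPKM were transformed as log2(FPKM + 1) and fitted per passage in R 4.3.3 by limma 3.58.1 with its trend option. The main test took genes reaching 1 FPKM in 3 or more libraries. Tests were two-sided with Benjamini-Hochberg adjustment over all genes and a threshold of 0.05. A second fit had no filter, and the difference between passages was a contrast over 13 libraries. The scripts were tested on simulated data. Summaries and figures used Python 3.11.15, pandas 2.3.3, numpy 2.4.6 and matplotlib 3.10.9.

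Members and lists were chosen with earlier results of these data known. All members are named. From each other list up to 4 called genes per passage were named by the largest change, or, in a list with none, the 2 of highest FPKM. Likeness to the main-test member with the smallest passage 1 adjusted p was ranked among genes with a mean of at least 5 FPKM in each passage. Hdac1 and Smad7 at passage 1 and Acvr2a and Fst at passage 6 were named after their values were seen, to complete short counts. Alternatives covered pseudocount, filter, scaling, trend, array weights, a block on replicate number and leaving out each library. Leaving out pairs of libraries with tissue markers was chosen after seeing the data.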

Additional observations from a re-analysis of the deposited data

Results flagged for a closer look

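In the 4 experimental libraries of passage 1, 1 library stood apart from the other 3 for 2 genes by the ratio of its gap to the range, which passed the 95% critical value of Dixon's test. The check was run on every member and every other named gene. Chance flags about 1 of 20 groups, so 2 flags are about as many as chance alone gives over the genes checked. Neither flag is read as a result. Rfng was at 7.15, 7.31, 7.32 and 8.39 FPKM, a ratio of 0.864, with the highest library apart. Bmpr2 was at 6.20, 6.60, 6.61 and 6.68 FPKM, a ratio of 0.841, with the lowest apart.

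In the limma contrast over all 13 libraries, 11 of 69 other pathway genes tested were called (15.9%), beside 14.7% of all 13019 genes. For 8 genes named for a called change, the change at passage 6 differed from that at passage 1. The largest was Smad7, at -0.88 on the log2 scale (SE 0.113, adjusted p = 0.00089), which rose at passage 1 and fell at passage 6. Rfng differed by 0.59 (adjusted p = 0.0039): it fell at passage 1 and was at 10.4 and 10.9 FPKM in controls and experimental libraries at passage 6. Maml1 differed by -0.58 (adjusted p = 0.0024) and was at 7.25 and 6.97 FPKM at passage 6. Psenen differed by 0.56 (adjusted p = 0.0035) and was at 30.9 and 28.1 FPKM at passage 1. These 4 differences stood in every alternative run.

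Numb differed by -0.50 (adjusted p = 0.0153), being at 5.89 and 5.14 FPKM at passage 6, a call that ended with both low-cartilage libraries left out (0.0657) or both liver-marker libraries left out (0.0673). Lfng differed by -0.49 (adjusted p = 0.0294), a call that ended without any 1 control of either passage or without passage 6 experimental library 2 (up to 0.0699). The Lfng call also ended with a pseudocount of 5 (0.0617), without the filter (0.0822) and with the replicate block (0.0547). Aph1a differed by 0.31 (adjusted p = 0.0259) and was at 21.3 and 21.5 FPKM at passage 1, a call that ended without control 1 or 3 of passage 1, control 1 or 2 of passage 6 or passage 6 experimental library 3 (up to 0.0704). The Aph1a call also ended without the filter (0.0534), with the replicate block (0.0706) and with both low-cartilage libraries left out (0.11). Acvr1 differed by -0.28 (adjusted p = 0.0211) and was at 10.4 and 11.7 FPKM at passage 6, a call that ended without control 2 of passage 1 or control 1 or 2 of passage 6 (up to 0.054). The Acvr1 call also ended with the replicate block (0.0977) and with both low-cartilage libraries left out (0.0835).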

How the results depend on the processing

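The main limits are low read support for 5 members, replicates of unstated origin, separately deposited tables and tissue marker signal that differs between libraries. The share of called genes that were higher depended on scaling: at passage 1 it was 37.8% as deposited, 55.7% with median-of-ratios scaling, 48.9% with equal totals and 50.2% with quantile normalization, and at passage 6 it was 45.5%, 57.6%, 52.0% and 51.0%.

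The count of called members at passage 1 was 1 as reported, 3 without the filter, where all 10 members were tested (Id1, Notch3 and Jag1), 2 with array weights (Id1 and Notch2) and 0 with both low-cartilage libraries left out. At passage 6 it was 2 as reported, 4 with array weights and 2 to 4 when 1 library was left out. Of all genes tested there, 19.8% were called as reported, 28.4% with array weights and 5.47% to 34.6% when 1 library was left out. For the difference the count of called members was 0 as reported, 1 with a pseudocount of 5 (Notch2), 1 with array weights (Id3) and 0 to 1 when 1 library was left out. The shares of all genes were 14.7%, 16%, 24.5% and 8.98% to 19.6%, in the same order. Other pathway genes called numbered 18 at passage 1, 28 with array weights, 9 without both low-cartilage libraries and 12 to 22 when 1 library was left out. The share of all genes called at passage 1 was 30.4% as reported, 9.88% without the filter, 40.3% with array weights and 8.02% without both low-cartilage libraries. When 1 library was left out it was 16.7% to 32.8%. At passage 6 the other pathway genes called numbered 18, 11 without the filter (beside 4.11% of all genes), and 4 to 25 when 1 library was left out. The cause was not tested.

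Same-numbered control and experimental libraries did not deviate together: their correlations were 0.166, -0.192 and 0.239 at passage 1 and -0.0664, -0.06 and 0.0332 at passage 6. With the replicate number as a block, the called members numbered 1 (passage 1), 2 (passage 6) and 0 (difference). In the fit without the filter the block ended both passage 1 rises, that of Notch3 (adjusted p = 0.167) and that of Jag1 (0.126). In the main test it left 9 other pathway genes called at passage 6. Over all genes the block left 1813 calls of 3792 at passage 1 and 1438 of 2462 at passage 6.

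Of the results for single genes, 1377 kept direction and side of the threshold under an alternative, 142 lost the call, 19 gained one and 24 changed sign, none of these last from a called value. At passage 1 these were Id2 (-0.031 with array weights, -0.048 to 0.076 when 1 library was left out), Id3 (0.0298 with median-of-ratios scaling, 0.00603 with equal totals, -0.064 to 0.00072 when 1 library was left out) and Aph1a (-0.0297 to 0.045 when 1 library was left out). At passage 6 they were Notch1 (-0.10 with both liver-marker libraries left out, -0.015 to 0.0904 when 1 library was left out), Notch3 (-0.056 with both liver-marker libraries left out), Nrarp (-0.031 with both liver-marker libraries left out, -0.0062 to 0.12 when 1 library was left out), Rfng (-0.049 with both liver-marker libraries left out, -0.0075 to 0.12 when 1 library was left out) and Maml1 (-0.11 to 0.00798 when 1 library was left out). For the difference they were Notch1 (0.0103 with array weights, -0.055 to 0.0499 when 1 library was left out), Dll1 (-0.016 with both low-cartilage libraries left out, -0.0015 to 0.12 when 1 library was left out) and Hes1 (-0.051 with both low-cartilage libraries left out, -0.0498 to 0.14 when 1 library was left out). Leaving out both liver-marker libraries leaves 1 experimental library, assumed to vary like the others.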
